A study of Mus musculus with 10 samples.

Results

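The genes described here are 8 imprinted genes with known roles in embryonic growth, Mest, Igf2, Dlk1, Peg3, Ndn, Cdkn1c, Grb10 and Plagl1, in the mouse neocortex at E11.5. They were taken by gene symbol, 8 of the 15063 named genes on the arrays, and 10 of the 21766 probes carried one of these symbols. The set was chosen by the caudal to rostral ratio of Mest on these arrays, to which imprinted growth genes were added by name. These ratios are therefore given below as a description, without a test.

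The E11.5 neocortex was divided into 3 along its rostral to caudal axis, and the study compared the end pieces in the inbred strain C57 and the outbred stock MF1, with no treatment or engineered allele named in the labels. Each pool held tissue of 3 embryos by the sample labels (2 or more by the series' design text), taken within a litter, and its amplified rostral and caudal RNA competed on the same array under the dyes Cy3 and Cy5. A second array with the dyes exchanged was run for each pool, which gave 2 pools on 4 arrays for C57 and 3 pools on 6 arrays for MF1; a further C57 pool of the design was not analysed here. The pool is the replicate, so the p-values below are judged against the spread between pools, and the number of pools limits the precision.

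Values are given on the log2 scale as caudal divided by rostral RNA, so a negative value means more RNA in the rostral piece. The numerator of the deposited ratios is not stated, and a Cy5 numerator was taken as likely from the dye labels and from genes of known gradient. Nr2f1, a nuclear receptor known to be high caudally, had ratios of 1.85 ± 0.22 and 0.57 ± 0.20 by its 2 probes (SE, n = 5 pools), and Spry1, an FGF feedback inhibitor known to be high rostrally, had -1.28 ± 0.14. Were the numerator Cy3, all signs in the text would be reversed. The arrays gave a ratio for 13723 to 20870 probes, and the median ratio of a pool ranged from -0.18 to 0.36 over the 11855 tested probes, and the arrays were used without centring. Once turned to the same direction, the arrays of a pool had Pearson correlations between -0.25 and 0.03 over all probes measured on both. The ratios of the dye-exchanged arrays thus did not rise and fall together across probes. Turning gives a dye effect of a probe opposite signs on the 2 arrays, and its part in these values was not tested. With arrays fitted singly with a dye term, limma's correlation within a pool, a different measure, was 0.36. A ratio holds no level, so the tissue label could not be checked against the abundance of marker genes. In bulk tissue, fewer cells of a type and less RNA per cell cannot be told apart.

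Imprinted genes are expressed mainly from the copy inherited from 1 parent. As a broad rule, paternally expressed genes such as Igf2, Mest, Dlk1 and Peg3 favour growth of the embryo, and maternally expressed genes such as Cdkn1c and Grb10 restrain it. Several of these genes are part of a co-expressed imprinted network that the zinc-finger factor Plagl1 is known to regulate. In the developing cortex, Cdkn1c (p57) helps progenitors leave the cell cycle and Ndn acts in differentiating neurons.

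Without centring, Mest and Cdkn1c were rostral in all 5 pools, and Igf2 and Plagl1 were caudal in 4 of 5. Peg3, Ndn and Grb10 lay near 0 or changed side between pools. The single Dlk1 probe had too few ratios to be tested. A probe entered the test when 2 or more pools per strain had both dye orders, a condition that 9 of the 10 member probes met, and 8 of these were measured in all 5 pools. Of those 8, 2 were negative in all 5 pools and 0 positive in all 5, against 0.728% and 4.16% of the 8924 probes measured in every pool. Since the genes were chosen with this contrast in view, nothing is read from these counts.

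**Figure D1:**
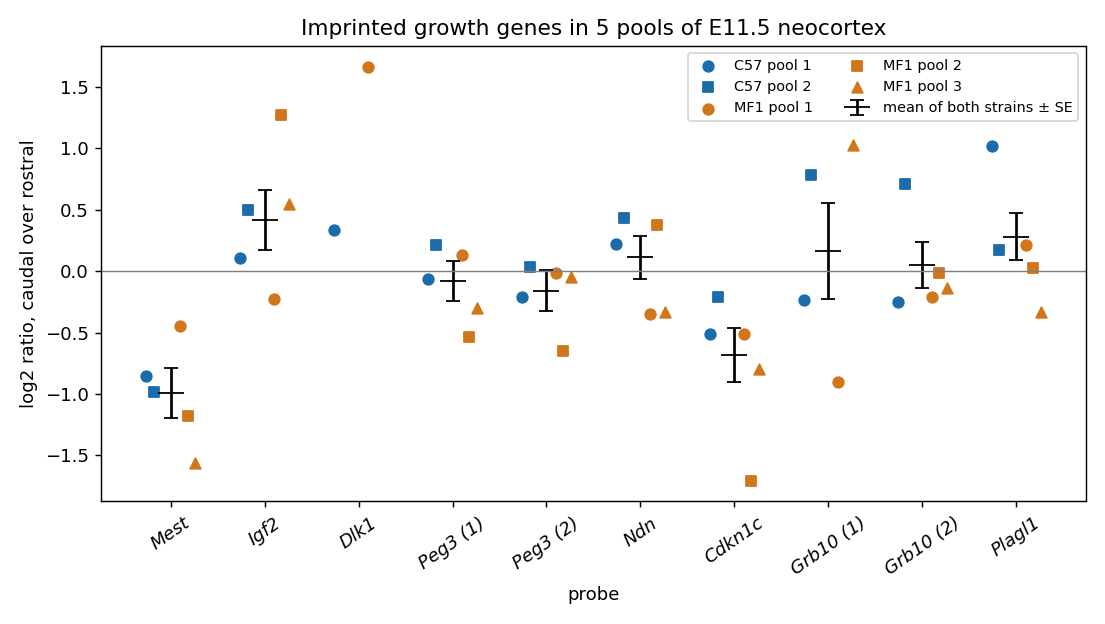
Log2 ratio of caudal over rostral RNA (vertical axis) for the 10 probes of the 8 genes (horizontal axis), with 1 point per pool (blue C57, orange MF1) and a black bar for the mean of both strains ± SE where the probe was tested. The 5 Mest points lie between -1.56 and -0.45 and the 5 Cdkn1c points between -1.71 and -0.21, while the points of the other tested genes fall on both sides of 0.

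Mest encodes an enzyme of the alpha/beta hydrolase fold, and loss of its paternal copy slows growth of the mouse embryo. Its promoter region overlaps a stretch that is methylated on the maternal copy. The sequences before its RefSeq start sites are shown because Mest is the gene the set was gathered around. They cover the 250 bases before the upstream start, chr6:30733256-30733505, and before the downstream one, chr6:30737800-30738049, both on the plus strand of GRCm38.p6, with each CG dinucleotide in capitals.
Mest upstream start: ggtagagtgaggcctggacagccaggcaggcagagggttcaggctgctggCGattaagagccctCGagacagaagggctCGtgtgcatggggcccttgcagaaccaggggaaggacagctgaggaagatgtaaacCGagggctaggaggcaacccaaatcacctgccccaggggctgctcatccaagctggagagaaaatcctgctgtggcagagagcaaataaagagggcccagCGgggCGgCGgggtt
Mest downstream start: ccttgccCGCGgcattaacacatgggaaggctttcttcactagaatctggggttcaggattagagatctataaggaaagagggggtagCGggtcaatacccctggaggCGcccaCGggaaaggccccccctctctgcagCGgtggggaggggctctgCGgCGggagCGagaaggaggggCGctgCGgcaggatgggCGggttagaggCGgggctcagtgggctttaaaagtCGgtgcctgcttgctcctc

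The upstream window holds 7 CG dinucleotides and the downstream window 14, against a median of 6 over 32851 RefSeq promoter windows cut the same way. A further start lies 3 bases away from the downstream one and also has 14. Of the 8 genes, 7 had windows in the RefSeq promoter table, 13 windows in all, and Cdkn1c was not matched. Their CG counts ran from 1, at one of the 4 Igf2 starts, to 40, at one of the 2 Grb10 starts, so the genes share no common CG content. The letters GGGGCCCC, a motif bound by Plagl1 that reads the same on both strands, were found in 1 of the 13 windows, that of Peg3, and in 0.89% of all windows.

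In C57, Mest had a ratio of -0.85 in pool 1 and -0.98 in pool 2. The MF1 pools gave -0.45, -1.18 and -1.56 in the order of pools 1 to 3. Every pool was rostral, with MF1 pool 1 nearest to 0 and MF1 pool 3 furthest, and the strains overlapped because the C57 values fell inside the MF1 range. The mean of both strains was -0.99 ± 0.20 (SE, n = 5 pools), which is 1.99-fold more RNA rostrally. This mean had rank 45 from the lowest among the 11855 tested probes.

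Without centring, Mest was also rostral on each of its 10 arrays. With caudal RNA in Cy5 the turned ratios were -0.88 and -0.84 for the C57 pools and -0.62, -1.49 and -1.75 for the MF1 pools. With rostral RNA in Cy5 they were -0.83 and -1.13 for C57 and -0.28, -0.87 and -1.37 for MF1. The dye orders overlapped, with means of -1.12 and -0.89. Ratios that were negative on all 10 arrays occurred for 0.213% of the 8924 probes measured on 10, among them no other of the 8 genes. When each array was centred on its median, the mean of Mest was -1.04, but the array of MF1 pool 1 with rostral RNA in Cy5 then lay on the caudal side, at 0.17, and the other 9 stayed rostral.

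**Figure D2:**
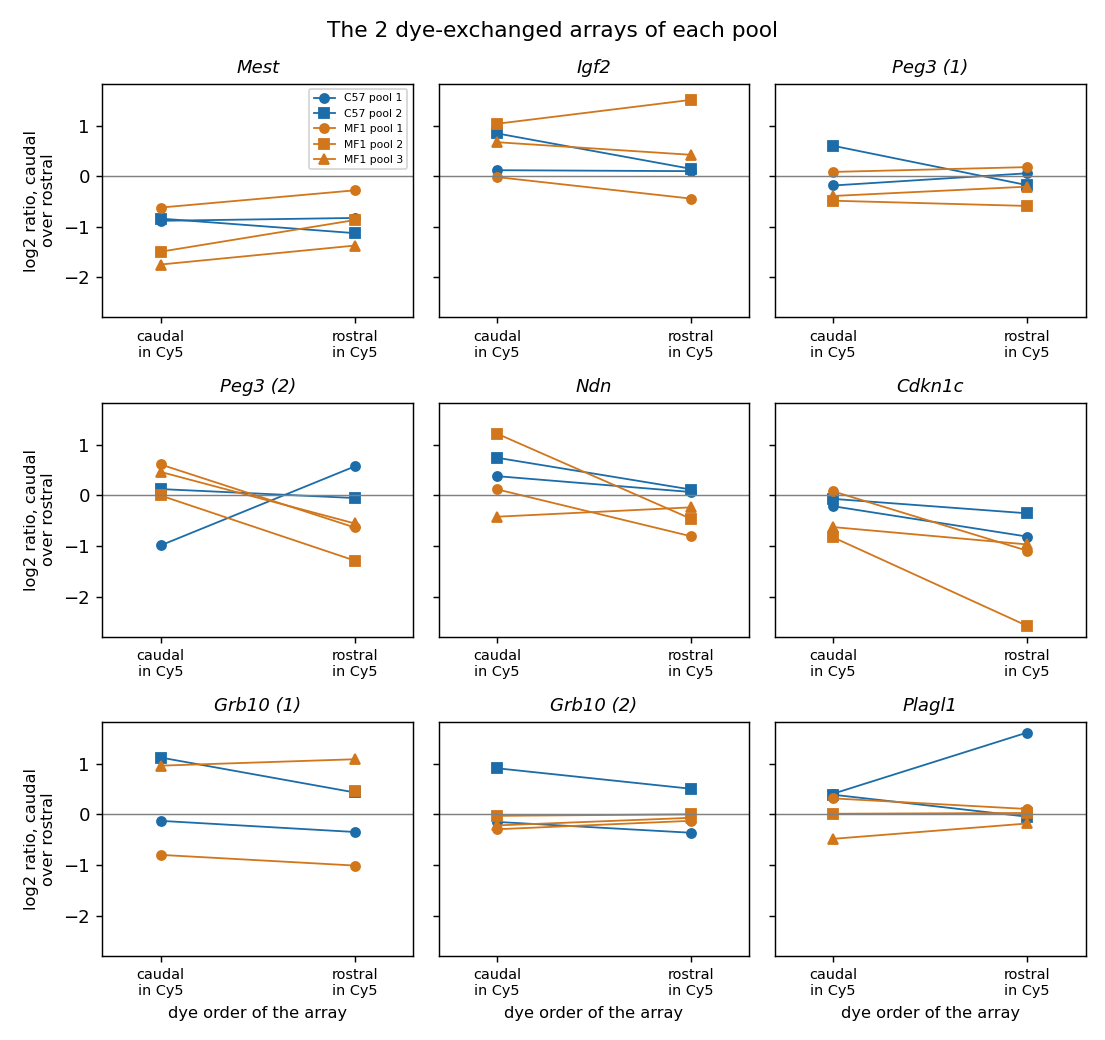
Log2 ratio of caudal over rostral RNA (vertical axes, shared) on the 2 dye-exchanged arrays of each pool (horizontal axes), for the 9 tested probes; lines join the arrays of a pool, blue for C57 and orange for MF1. The lines of Mest stay below 0 in both dye orders, those of Cdkn1c drop where rostral RNA carries Cy5, those of the second Peg3 probe mostly cross 0, and 2 of the 5 Ndn lines do; a point without a line is a pool with 1 measured array.

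Cdkn1c is an inhibitor of cyclin-dependent kinases that holds cells in G1 and is active from the maternal copy. C57 gave -0.52 and -0.21 for this gene, and MF1 gave -0.51, -1.71 and -0.80. All were rostral, MF1 pool 2 stood furthest out, and MF1 pool 1 fell just inside the C57 range, so the strains overlapped. The mean of both strains was -0.68 ± 0.22 (SE, n = 5 pools), 1.61-fold more RNA rostrally, and -0.74 with centred arrays. Dye order moved this gene more than Mest: with caudal RNA in Cy5 it averaged -0.33, and with the dyes exchanged -1.16. Its single positive array was the one of MF1 pool 1 with caudal RNA in Cy5, at 0.08.

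Grb10 is an adaptor protein that dampens signalling of the insulin and IGF receptors, active from the maternal copy in most tissues and from the paternal copy in neurons. Its first probe gave -0.24 and 0.78 in C57 and -0.90 and 1.03 in MF1 pools 1 and 3, with no pool value in MF1 pool 2. Pools of the same strain thus lay on opposite sides, and the mean was 0.17 ± 0.39 (SE, n = 4 pools). The second probe gave -0.26 and 0.71 in C57 and -0.21, -0.01 and -0.14 in MF1, with a mean of 0.05 ± 0.19. When each array was centred on its median, both probes had C57 pool 1 arrays on both sides of 0. These were 0.036 and -0.146 for the first probe and 0.015 and -0.161 for the second. Without centring, both probes were caudal in C57 pool 2 and rostral in C57 pool 1, and they disagreed in MF1 pool 3. The mean changed side without 1 pool: at the first probe it was -0.32 without MF1 pool 3, -0.088 without C57 pool 2 and 0.65 without MF1 pool 1, and at the second -0.19 without C57 pool 2 and 0.29 without C57 pool 1.

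Igf2, the IGF ligand of fetal growth, is active from the paternal copy. In C57 its pools gave 0.11 and 0.50, and in MF1 -0.23, 1.27 and 0.55. Without centring, only MF1 pool 1 was rostral, and the MF1 range enclosed the C57 values. When each array was centred on its median, the arrays of MF1 pool 1 lay at -0.091 and 0.006. The mean was 0.42 ± 0.25 (SE, n = 5 pools), and 0.37 with centred arrays. Without MF1 pool 2 it was 0.23, and without MF1 pool 1 it was 0.61. On the 10 arrays Igf2 was positive 8 times, with means of 0.53 with caudal RNA in Cy5 and 0.35 with rostral RNA in Cy5.

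Plagl1 encodes the zinc-finger factor named above, which also slows cell division. The C57 pools gave 1.01 and 0.17 and the MF1 pools 0.21, 0.02 and -0.33, with a mean of 0.28 ± 0.19 (SE, n = 5 pools). C57 pool 1 was the high value, and it rested on the array with rostral RNA in Cy5, at 1.62, more than on its partner, at 0.41. Without C57 pool 1 the mean was 0.07. When each array was centred on its median, the mean was 0.23. Both arrays of C57 pool 2 then lay on the rostral side, at -0.28 and -0.12. Those of MF1 pool 2 split, at -0.18 and 0.04.

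Peg3, a large zinc-finger protein active from the paternal copy, was measured by 2 probes. The first gave -0.06 and 0.21 in C57 and 0.13, -0.54 and -0.30 in MF1, with a mean of -0.08 ± 0.16. The second gave -0.21 and 0.03 in C57 and -0.01, -0.65 and -0.05 in MF1, with a mean of -0.16 ± 0.17 (SE, n = 5 pools for both). Without MF1 pool 2 these means were -0.005 and -0.059. MF1 pool 2 was the lowest value at both probes, and the other pools lay within 0.30 of 0. At the second probe the mean changed from 0.04 with caudal RNA in Cy5 to -0.39 with the dyes exchanged, and C57 pool 1 changed the opposite way.

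Ndn, a protein of the MAGE family that favours the differentiation and survival of neurons, gave 0.22 and 0.43 in C57 and -0.35, 0.38 and -0.33 in MF1. The C57 pools were caudal and the MF1 pools split, and the mean was 0.11 ± 0.17 (SE, n = 5 pools), or -0.0066 without MF1 pool 2. Its mean turned with the dye order, from 0.41 with caudal RNA in Cy5 to -0.27 with rostral RNA in Cy5.

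Dlk1, a membrane protein related to Notch ligands, had a ratio on 6 of the 10 arrays. Both dye orders were measured in C57 pool 1, at 0.25 and 0.42, and in MF1 pool 1, at -0.65 and 3.97. Single arrays gave -3.72 in C57 pool 2, with rostral RNA in Cy5, and -2.98 in MF1 pool 2, with caudal RNA in Cy5. These values do not place Dlk1 on either side.

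The 2 strains were compared because the choice of the genes did not use the difference between them. None of the 9 tested member probes differed between MF1 and C57 in limma (adjusted p = 0.999 for each), and 0 of 9 had an unadjusted p under 0.05. Over all 11855 probes 0 passed the adjusted threshold (0%), and 223 had an unadjusted p under 0.05 (1.88%). No member probe had C57 and MF1 pools that did not overlap, against 17.2% of all probes, 15.2% with MF1 lower and 2.06% with MF1 higher. With 2 and 3 pools the intervals were wide, and a p that misses the threshold does not show that the strains were alike.

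For Mest, MF1 minus C57 was -0.14 ± 0.40, with a 95% interval from -1.15 to 0.86. Its strain means were close, at -0.92 ± 0.31 in C57 (SE, n = 2 pools) and -1.06 ± 0.26 in MF1 (SE, n = 3 pools). Cdkn1c had -0.36 ± 0.34 in C57 and a 2.01-fold rostral excess in MF1, a difference of -0.64 ± 0.44 with an interval from -1.72 to 0.44. This difference was -0.0008 with arrays centred and scaled and -0.29 without MF1 pool 2. Plagl1 had a difference of -0.63 ± 0.38 (interval from -1.56 to 0.31), with 0.59 in C57 and -0.03 in MF1, and it was -0.20 without C57 pool 1 and -1.05 without C57 pool 2. Igf2 was the only member probe whose ratio was higher in MF1, at 0.53 against 0.30 in C57. The other member probes differed by -0.42 to -0.15, and the median difference over all probes was -0.10.

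**Figure D3:**
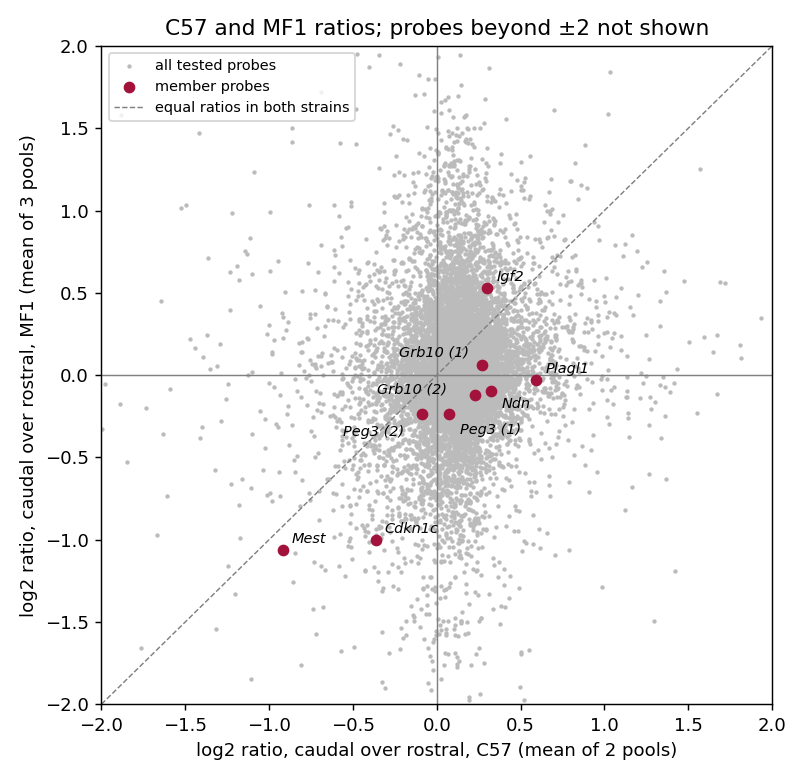
Log2 ratio of caudal over rostral RNA in C57 (horizontal axis, mean of 2 pools) against MF1 (vertical axis, mean of 3 pools, 2 for the first Grb10 probe), with a grey dot for each tested probe within 2 of 0 on both axes and a red dot for each of the 9 tested member probes; the dashed line marks equal ratios. Mest lies near that line at -0.92 and -1.06, Cdkn1c lies below it with -0.36 in C57, and the remaining members lie within the grey cloud around 0.

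Other imprinted genes, described here by counts and medians, lay on both sides of 0. Of 63 further imprinted genes, 48 had a probe and 34 were tested by 36 probes, 23 of them positive and 13 negative, with a median of 0.08. Over all tested probes the median was 0.09, with 8221 positive and 3631 negative; after centring, all probes split 7017 to 4836 and the other imprinted genes 21 to 15. Among genes listed as active from the paternal copy, 10 probes were positive and 3 negative (median 0.11). Among those listed as active from the maternal copy, 13 were positive and 10 negative (median 0.05). Which copy was active in this tissue was not measured, so the lists are not a split by active copy here. None of the 36 probes passed limma's adjusted threshold for the mean of both strains, as did 0 of all 11855 (0%), of which 367 had an unadjusted p under 0.05 (3.1%).

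Among genes listed as paternally active, Slc38a4, an amino acid transporter, had the most rostral ratio, at -0.42 ± 0.21. Snurf, which shares a transcript with the splicing gene Snrpn, had the most caudal one, at 0.41 ± 0.16. Among genes listed as maternally active, Rian, a noncoding RNA, stood at -0.60 ± 0.65 from 4 pools. Its ratio was -3.25 in MF1 pool 1 and 1.64 in C57 pool 2. Nap1l4, a histone chaperone, stood at 0.64 ± 0.15 and was rostral only in MF1 pool 1, at -0.02. The C57 and MF1 pools did not overlap at 6 of the 36 probes, all with MF1 lower, a share near the 15.2% of all probes with MF1 lower. For the strain difference, 2 of the 36, Htr2a and Nap1l4, had an unadjusted p under 0.05 in limma, against 1.88% of all probes, and none passed after adjustment (adjusted p = 0.999 for both).

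**Figure D4:**
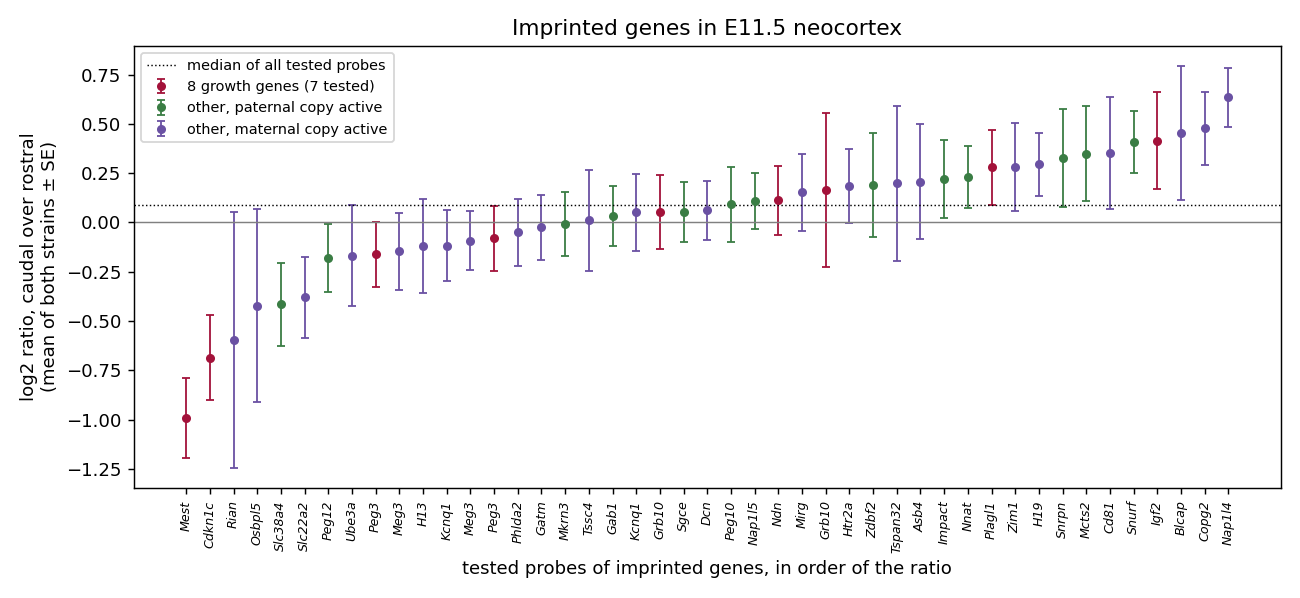
Mean log2 ratio of caudal over rostral RNA ± SE (vertical axis) for the tested probes of imprinted genes in order of their ratio (horizontal axis). Red marks the growth genes described here, green others listed as paternally active and violet others listed as maternally active. Mest at -0.99 and Cdkn1c at -0.68 lie at the rostral end, and the dotted line marks the median of all tested probes, 0.09.

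Imprinted genes lie in domains whose members share control regions, so imprinted neighbours within 2 Mb of a gene, by their RefSeq positions in GRCm38.p6, are given as well; those named here were picked after their values were seen. Copg2, a coat protein gene that overlaps Mest in the annotation, had a ratio of 0.48 ± 0.18, opposite to Mest; which strand each probe reads was not known here. H19, the noncoding RNA next to Igf2 and active from the other parental copy, had 0.29 ± 0.16 and, like Igf2, lay on the caudal side. Without centring, H19 was positive in all 5 pools, as were 4.16% of the probes measured in every pool. In MF1 pool 3 it stood at 0.05, below the median of 0.15 over all tested probes of that pool. In the domain of Cdkn1c, the potassium channel Kcnq1 gave -0.12 ± 0.18 and 0.05 ± 0.20 at its 2 probes, the growth restrainer Phlda2 -0.05 ± 0.17 and the tetraspanin Cd81 0.35 ± 0.28. These lay nearer to 0 than Cdkn1c or on the other side, and Osbpl5, at -0.42 ± 0.49 from 4 pools, spread from -1.62 to 0.63. Near Dlk1, the noncoding RNA Meg3 gave -0.15 ± 0.19 (4 pools) and -0.09 ± 0.15 at its 2 probes. Next to Peg3, Zim1 had 0.28 ± 0.22, and near Ndn, Mkrn3 had -0.01 ± 0.16 and Peg12 -0.18 ± 0.17.

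The IGF pathway takes the signal of Igf2 through the receptor Igf1r, while Igf2r removes the ligand and binding proteins hold it. Of 26 further genes of this pathway, 11 were tested by 13 probes, 6 positive and 7 negative, with a median of -0.09, and 0 passed limma's adjusted threshold for either contrast. Pappa, a protease that frees IGF from its binding proteins, had the most rostral ratio, -0.76 ± 0.34, and reached -2.73 in MF1 pool 1. Igfals, a serum carrier of IGF, had the most caudal one, 0.32 ± 0.77 from 4 pools, between -1.82 and 2.78. The probes of Igf1r disagreed: the first gave -0.42 ± 0.29, with both C57 pools rostral and MF1 pools 2 and 3 caudal, and the other 0.26 ± 0.14. Igf2r had a ratio on 6 arrays and was not tested.

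Other regulators of the G1 phase of the cell cycle are listed beside Cdkn1c because they act on the same kinases. Of 17 such genes, 12 were tested by 13 probes, 11 positive and 2 negative, with a median of 0.12. With centred arrays, 9 of these probes lay above 0 and 4 below, with a median of 0.07. None passed limma's adjusted threshold for either contrast. Ccnd1, a D-type cyclin, had -0.68 ± 0.23 and was rostral in all 5 pools. Ccnd2, another D-type cyclin, had 0.86 ± 0.29 at its more caudal probe and 0.68 ± 0.19 at the other. The inhibitor Cdkn1a, a relative of Cdkn1c, had 0.09 ± 0.19 from 4 pools, and Cdkn1b had a ratio on 6 arrays and was not tested. Among sequence relatives and partners of the 8 genes, 10 probes were tested, with a median of 0.26 and a range from -0.16 for Nsmce3, a MAGE protein, to 0.79 for Maged1, another MAGE protein that binds receptors of neuronal survival signals; none passed.

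Since Mest and other imprinted growth genes are abundant in mesenchyme, markers of neighbouring tissues were set beside it. Of 12 tested probes for meninges and mesenchyme, 7 were positive and 5 negative, with a median of 0.01 and pool medians from -0.35 to 0.55. Their means ran from -0.54 to 0.77 ± 0.36, the latter for Lum, the gene furthest from 0. With centred arrays, 5 lay above 0 and 7 below, with a median of -0.03. The part of mesenchyme in the ratio of Mest was not tested. Of 7 probes for surface ectoderm, 6 were negative, with a median of -0.13 and pool medians from -0.87 to 0.19, led by Krt18 at -1.44 ± 0.19 (4 pools). For ventral telencephalon, 6 probes were negative and 5 positive, around a median of -0.23, led by Dlx1 at -0.99 ± 0.24, with pool medians from -0.76 to 0.37. Surface ectoderm and ventral telencephalon thus had medians on the side of Mest and Cdkn1c, and their part in those ratios was not tested.

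Cortical progenitor markers split into 8 positive and 6 negative probes, with a median of 0.04 (-0.01 with centred arrays) and pool medians from -0.33 to 0.26. The probe furthest from 0 was one of Slc1a3, at -0.54 ± 0.16, while its second probe gave -0.15 ± 0.46 and Hes5 and Lhx2 gave 0.37 and 0.32. Endothelial markers split into 5 positive and 5 negative, with a median of 0.04 (-0.01 with centred arrays), pool medians from -0.26 to 0.47 and a range from -0.36 for Sox17 to 1.10 ± 0.23 for Sox18 (4 pools). Neuronal markers had 11 positive and 3 negative probes, or 9 and 5 with centred arrays. Their median was 0.10, with pool medians from -0.22 to 0.48 and Neurod1 furthest from 0, at 0.74 ± 0.14. All 6 blood probes were positive, with a median of 0.41, pool medians from -0.03 to 0.67 and Hbb-y at 0.52 ± 0.15. Choroid plexus and hem had 9 of 10 positive, a median of 0.36 and pool medians from -0.05 to 0.64, with Ttr at 1.68 ± 0.19.

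The genes most like Mest over the 5 pools were found among 7530 named probes measured in every pool, by the root mean square difference of the pool ratios. The nearest were Tff1, a secreted trefoil peptide, at 0.36, Mzb1, a protein of B-cell endoplasmic reticulum, at 0.37, the noncoding RNA Pantr1 at 0.41, the kinase Stk39 at 0.42 and Gas1, a membrane protein linked to growth arrest and hedgehog signalling, at 0.42. Pantr1, Stk39 and Gas1 were rostral on all 10 arrays without centring, with means of -0.72 ± 0.13, -0.72 ± 0.15 and -0.59 ± 0.19. Tff1 was rostral on 8 arrays and changed from -1.56 with caudal RNA in Cy5 to -0.13 with rostral RNA in Cy5, and Mzb1 was rostral on 7. Cdkn1c came at rank 11, with a difference of 0.56, and Igf2 at rank 6850, with 1.65. The measure compares the ratios themselves, so a probe with a mean near that of Mest tends to rank high even where its pools differ. The lowest pool was MF1 pool 2 for Cdkn1c and MF1 pool 3 for Mest.

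**Figure D5:**
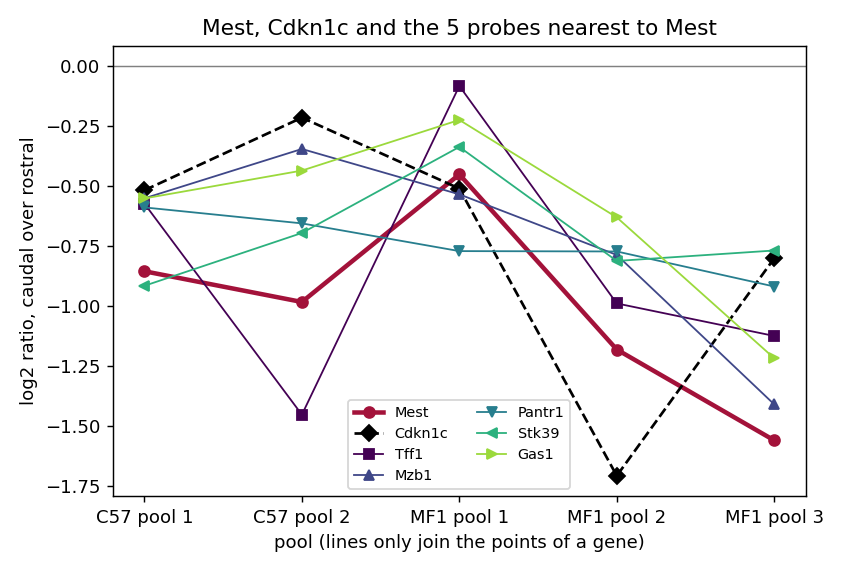
Log2 ratio of caudal over rostral RNA (vertical axis) in the 5 pools (horizontal axis) for Mest (red), Cdkn1c (black, dashed) and the 5 probes with the smallest root mean square difference from Mest; the lines only join the points of a gene. All these points lie below 0, and Mest runs from -0.45 in MF1 pool 1 to -1.56 in MF1 pool 3.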

How the data were processed

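The values deposited by the authors are 1 log2 ratio per probe for each of 10 arrays with 2 channels, a unit read from the values. Array medians lie off 0; how background and normalization were handled is not stated in the labels. Null values and the 436 values at a shared ceiling were treated as missing, and 232 control spots were left out. Arrays were turned to caudal over rostral by the dye labels, not centred, and the dye-exchanged arrays of a pool were averaged, as they share their RNA. Of 21766 probes, the platform annotation gave 1 symbol for 16632, several for 139 and none for 4995; 15952 were matched by gene identifier to RefSeq, with 0 symbols changed.

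The 11855 tested probes entered a linear model per probe with 1 coefficient per strain (limma 3.58.1, R 4.3.3; moderated two-sided tests), with Benjamini-Hochberg adjustment over all of them and a threshold of 0.05. SE values use the moderated spread shared by both strains. On simulated data, the turning of the arrays and the median estimate of the fit were checked. How many true differences so few pools can recover is not given here. Promoter sequences are RefSeq's, of GRCm38.p6; figures were drawn with matplotlib 3.10.9.

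The genes, lists and tests were chosen with earlier results of these data known. Named genes are the 8 members, the probes with the highest and the lowest mean of each gene list, the marker furthest from 0 of each marker list, Igf2r, H19, Igf1r and Cdkn1b, and the 5 probes nearest to Mest. Nr2f1 and Spry1 (for the direction), Htr2a, Cdkn1a, Sox17, Hes5, Lhx2, the second probes of Ccnd2 and Slc1a3 and the positional neighbours were named outside this rule. Alternatives covered centring, scaling, dye order, filters, ceiling values, probe averaging, variance models, the threshold, pool numbers as a block and leaving out each pool.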

Additional observations from a re-analysis of the deposited data

How the results depend on the processing

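The ratio of Mest stayed rostral under all 19 alternatives, from -1.19 with arrays centred and scaled to -0.87 without MF1 pool 3 (without 1 pool, -1.14 to -0.87), and that of Cdkn1c stayed between -1.07 and -0.30. No alternative let a member probe, or any probe of the table, pass for MF1 minus C57 in limma; the lowest adjusted p of a member probe was 0.737. Members whose strains do not overlap numbered 1 with caudal RNA in Cy5 only and 3 with rostral RNA in Cy5 only. They numbered 1 with no filter beyond 1 pool of each strain (the Dlk1 probe then enters). Without 1 pool they numbered 1 to 6 (6 without MF1 pool 1, 5 without C57 pool 1), where fewer pools are left to overlap. The share of all probes that did not overlap under these settings was not computed, so nothing is read from these counts. The median of other imprinted genes was 0.34 with caudal RNA in Cy5 only, -0.17 with rostral RNA in Cy5 only and -0.039 to 0.20 without 1 pool. The sign of MF1 minus C57 turned for Mest when scaled (0.80), with rostral RNA in Cy5 only (0.14), with the replicate block (0.10) and in the range without 1 pool (-0.45 to 0.10). It turned for the second Peg3 probe when scaled (0.10), with caudal RNA in Cy5 only (0.79) and without 1 pool (-0.27 to 0.058). For Grb10 it turned at the first probe with rostral RNA in Cy5 only (0.14), with weighted pools (0.37) and without 1 pool (-1.18 to 0.76), and at the second without 1 pool (-0.83 to 0.13); for Igf2 it turned without 1 pool (-0.14 to 0.61). The cause of these turns was not tested.

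Pool numbers are shared between strains but nothing says they pair. Deviations of same-numbered pools correlated at 0.15 for number 1 and -0.02 for number 2, and those of C57 pool 2 and MF1 pool 3 at 0.19. The deviations of the 2 C57 pools mirror each other, so these values cannot decide whether the pools pair. With pool number as a replicate block, on the pools with shared numbers, Mest was -0.87 and 0 member probes passed. Where leaving out a pool left C57 with 1, that pool was taken to vary like the MF1 pools.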
